A study of Mus musculus with 9 samples.

Results

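The rows described here are 94 noncoding genes that had no count in any control library and summed to at least 20 counts over the hypoxia libraries. They were taken from 33542 noncoding rows (0.28%) in a table of 55401 genes, and from the 3073 noncoding rows with at least 20 hypoxia counts (3.06%). The table came from RNA sequencing of primary neonatal mouse ventricular myocytes (NMVMs), the contractile muscle cells of the newborn ventricle, isolated from wild-type C57BL/6J mice aged 1 day. The Control group (n = 3) stayed at normal oxygen in complete DMEM with 10% FBS. The Hypoxia group (n = 3) spent 6 h in a chamber sealed with an oxygen-absorbing AnaeroPack, in DMEM lacking glucose and serum, and the Hypoxia+rSRGN group (n = 3) received recombinant serglycin, a secreted proteoglycan core protein, during the same 6 h. Low oxygen and the change of medium therefore cannot be told apart in any comparison with control. The labels do not say whether libraries came from separate isolations, so p-values measure the spread between these libraries, which may be technical.

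Most of the mouse genome that is copied into RNA outside coding genes is annotated in a few broad classes. Long intergenic and antisense RNAs are capped, usually spliced transcripts, of which a minority have known roles. Processed pseudogenes are copies of spliced messenger RNAs that were pasted back into the genome, and TEC rows are regions with signs of transcription that still await experimental checking. When cells are short of oxygen and nutrients they switch on stress genes, among them the chaperones driven by the heat shock factor HSF1, and RNA polymerase can then run past the normal ends of genes into flanking DNA. Counts in a noncoding row can thus come from the gene itself, from an intron, or from a neighbour on either strand, and counting without a strand option cannot tell these apart.

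Total counts ran from 21669017 to 22781557 in control, from 16583985 to 18148474 in hypoxia and from 16640239 to 20826701 in hypoxia+rSRGN. Noncoding rows held 1.93% to 2.19% of the counts in control, 5.51% to 5.96% in hypoxia and 4.83% to 5.28% in hypoxia+rSRGN. The markers of the labelled cell type were all detected, yet the 10 cardiomyocyte genes summed to 40998 to 49062 CPM (counts scaled to a common library total) in control, 3799 to 5779 CPM in hypoxia and 7137 to 7759 CPM in hypoxia+rSRGN. The 8 fibroblast markers summed to 8573 to 9783, 16973 to 20402 and 19081 to 19412 CPM, and the 6 macrophage markers to 219 to 226.3, 24.7 to 27.9 and 28.3 to 34.1 CPM. Smooth muscle markers (4 genes) spanned 1279 to 1480, 1917 to 2178 and 1618 to 1727 CPM, and endothelial markers (6 genes) 62 to 80.4, 37.5 to 48.3 and 40 to 50.9 CPM. No marker was at 0 in all libraries. Fewer cells of a type and less RNA per cell cannot be told apart in bulk RNA, and the part of these shifts in the counts below was not tested.

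By annotation, the 94 genes comprised 24 TEC rows, 25 pseudogenes (21 of them processed), 15 long intergenic RNAs, 15 antisense RNAs, 4 sense intronic RNAs, 2 other processed transcripts and 9 small RNA or rRNA genes. TEC rows made up 25.5% of them against 16.4% of the 2979 noncoding rows that had at least 20 hypoxia counts and at least 1 control count, referred to below as the comparison rows. Processed pseudogenes made up 22.3% against 26.4%. A single exon was annotated for 53 genes (56.4%, against 54.6% of the comparison rows), and the median exon length was 968.5 bases (range 62 to 5471) against 1412 bases. The median GC content of the longest transcript was 47.7% (range 33.2 to 66.1) against 48% for 2969 comparison rows with a sequence. The genes lay on 18 chromosomes, with 11 each on chromosomes 5 and 9.

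Some sequences show what kind of loci these are. The RNA of Gm20005, a long intergenic RNA with 2 exons (GRCm38, chr5:149641610-149647790, plus strand), and the promoter of its divergent neighbour Hsph1 (chr5:149636287-149636586, minus strand) are given first. Capitals in the promoter mark a match to the heat shock element TTCNNGAANNTTC. Of 2 Hsph1 promoters at hand, the one with a match is printed, and the match lies after the transcription start. The next is the first 300 bases of Gm8696 (chr17:34954413-34954712, minus strand), where capitals mark the 10 bases at which it differs from the messenger RNA of the coding gene Snu13. The 99 bases of Gm28960 follow (2 exons within chr1:153066481-153089507, minus strand), with the 3 differences from a stretch of an Lztr1 transcript in capitals. The promoter of BC049987 (chr9:44672211-44672510, minus strand) has the hypoxia response core CACGT in capitals. The printed Hsph1 promoter also holds that core, left unmarked there. The mature products of the 2 microRNA genes close the set, with the seed (bases 2 to 8) in capitals.
Gm20005: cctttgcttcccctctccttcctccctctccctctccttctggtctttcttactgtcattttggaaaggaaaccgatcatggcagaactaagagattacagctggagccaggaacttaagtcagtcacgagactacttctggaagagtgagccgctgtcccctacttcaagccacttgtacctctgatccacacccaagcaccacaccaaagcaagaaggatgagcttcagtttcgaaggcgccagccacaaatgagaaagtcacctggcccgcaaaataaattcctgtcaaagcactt
Hsph1 promoter: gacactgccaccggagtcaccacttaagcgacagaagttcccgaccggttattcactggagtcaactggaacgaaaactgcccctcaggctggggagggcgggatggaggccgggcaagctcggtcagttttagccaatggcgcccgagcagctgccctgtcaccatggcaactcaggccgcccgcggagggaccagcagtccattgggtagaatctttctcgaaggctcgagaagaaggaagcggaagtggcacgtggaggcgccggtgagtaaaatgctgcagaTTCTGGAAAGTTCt
Gm8696: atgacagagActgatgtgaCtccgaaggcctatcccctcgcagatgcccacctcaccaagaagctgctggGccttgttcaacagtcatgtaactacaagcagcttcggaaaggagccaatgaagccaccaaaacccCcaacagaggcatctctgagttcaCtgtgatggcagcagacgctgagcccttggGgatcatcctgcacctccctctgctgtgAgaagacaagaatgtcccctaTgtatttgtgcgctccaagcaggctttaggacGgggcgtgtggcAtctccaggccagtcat
Gm28960: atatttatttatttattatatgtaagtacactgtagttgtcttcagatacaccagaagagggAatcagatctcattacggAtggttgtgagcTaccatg
BC049987 promoter: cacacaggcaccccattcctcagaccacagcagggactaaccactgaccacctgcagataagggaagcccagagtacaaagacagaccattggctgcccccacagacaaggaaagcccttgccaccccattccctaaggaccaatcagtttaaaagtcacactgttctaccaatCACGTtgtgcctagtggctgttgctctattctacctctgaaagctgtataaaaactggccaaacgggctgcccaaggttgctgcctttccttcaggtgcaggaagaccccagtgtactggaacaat
mmu-miR-6546-5p: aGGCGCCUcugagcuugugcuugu
mmu-miR-6546-3p: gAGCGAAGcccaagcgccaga
mmu-miR-763: cCAGCUGGgaagaaccaguggc
The promoters and mature microRNAs are RefSeq's on GRCm38.p6, and the other sequences are GENCODE transcripts. The 3 mature microRNAs share no seed.

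The genes were selected on their counts in the control and hypoxia libraries, and the hypoxia counts were mostly low. Summed over the hypoxia libraries they ran from 20 to 2347 with a median of 34, and 39 genes had 20 to 29 counts, 41 had 30 to 99 and 14 had 100 or more. The leading 3 genes, Gm45833, Gm8696 and Gm48565, held 47.7% of the 9304 counts. A count was present in each hypoxia library for 91 of the 94 genes. The genes together made 205.5, 151.2 and 177.2 CPM in hypoxia replicates 1, 2 and 3, and 49 of them were highest in replicate 1, against 22 in replicate 2 and 23 in replicate 3. Since these counts and the 0 counts in control defined the set, no test of hypoxia against control is given for its members, and 0 of 66923004 control counts allows a level of up to 0.0448 CPM over that group (3 counts, counting error only). By the same rule 36 coding genes were found among 13884 with at least 20 hypoxia counts (0.259%), and the mirror rule, no count in hypoxia and at least 20 in control, found 48 of 2838 noncoding rows (1.69%).

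**Figure D1:**
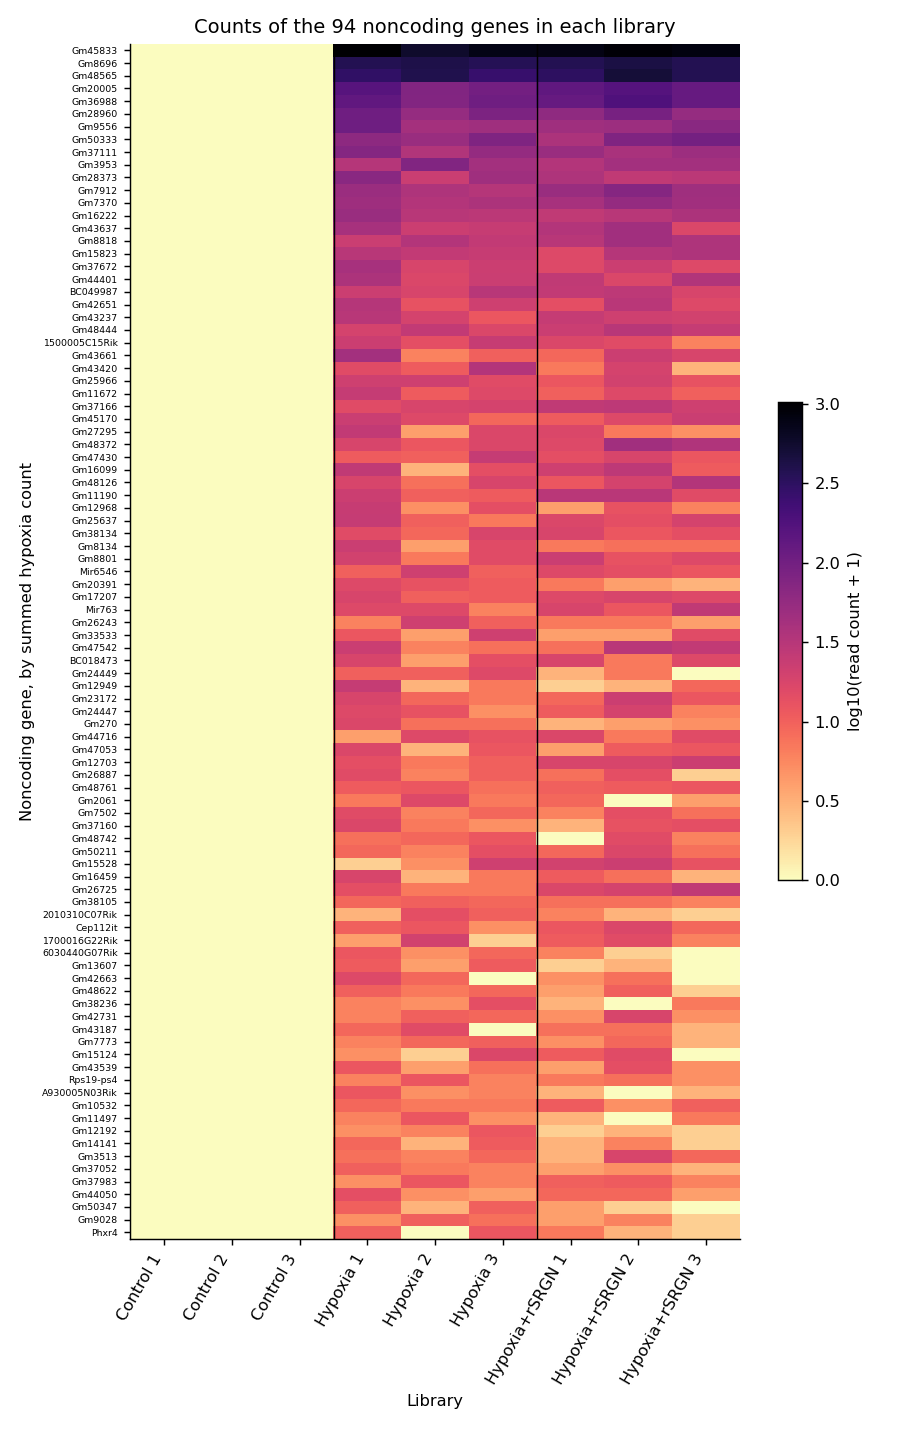
Read counts of the 94 noncoding genes (rows, ordered by summed hypoxia count) in the 9 libraries (columns), coloured by log10 of the count plus 1. The control columns are at 0 by the rule; the hypoxia and hypoxia+rSRGN columns hold counts from top to bottom, highest in Gm45833, with 3 genes at 0 in 1 hypoxia library and 11 at 0 in 1 hypoxia+rSRGN library.

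Gm45833, a long intergenic RNA of 2730 exon bases on chromosome 8 (121666814 to 121674088, minus strand), had 1021, 565 and 761 counts in hypoxia and 791, 918 and 833 in hypoxia+rSRGN. The hypoxia values stood at 44.9 ± 12 CPM (SD, n = 3) and those with rSRGN at 45.3 ± 1.92 CPM, so the 2 groups overlapped and the spread was wider in hypoxia. As a description of the values that chose it, the summed hypoxia counts were at least 1004-fold higher than the limit that 0 control counts allow, a bound on the control side only. It lay within an intron of Galnt2l on the opposite strand, a gene with 0 counts in all 9 libraries, and 13.9 kb upstream of Zcchc14, which was not called (log2 fold change 0.15, SE 0.08, adjusted p = 0.107, edgeR).

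Gm8696, a processed pseudogene of 385 bases (chromosome 17, minus strand), had 367, 414 and 359 counts in hypoxia and 370, 430 and 366 in hypoxia+rSRGN. Within hypoxia, though not with rSRGN, these were the most even counts among the leading genes. Per kilobase of exon Gm8696 was higher than Gm45833, at 56.8 against 16.4 CPM per kb in hypoxia. Gm48565, a TEC row of 1705 bases on chromosome 9 (40820969 to 40822673, plus strand), had 294, 386 and 270 counts in hypoxia and 315, 497 and 372 with rSRGN. Gm20005 had 157, 77 and 98 counts in hypoxia and 136, 163 and 122 with rSRGN. In each of these genes the 2 hypoxic groups overlapped.

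Gm36988, a sense intronic RNA inside Frmd4a on chromosome 2, had 133, 75 and 103 counts in hypoxia and 122, 184 and 121 with rSRGN. The antisense RNA Gm28960, in an intron of Nmnat2, had 103, 53 and 83 counts and then 59, 89 and 53. The processed pseudogene Gm9556, 8.28 kb upstream of the mucin gene Muc4, had 106, 41 and 45 counts and then 45, 48 and 66. Replicate 1 was the highest hypoxia library for these 3 genes, and their groups overlapped. Gm50333, a long intergenic RNA 2.2 kb downstream of the chromatin reader gene Brd2, had 61, 50 and 79 counts in hypoxia and 36, 78 and 95 with rSRGN. The TEC row Gm37111, 1.08 kb downstream of Mobp, had 72, 33 and 55 counts and then 51, 38 and 47. Gm3953, a processed pseudogene on chromosome 9, had 31, 76 and 43 counts in hypoxia, where replicate 2 was highest, and 32, 43 and 43 with rSRGN.

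The hypoxia+rSRGN libraries were not used to choose the genes, and the same RNAs were present in them. A count was found in all 3 libraries for 83 genes, 11 genes were at 0 in 1 library, and none was at 0 in 2 or more. The summed counts ran from 3 to 2542 with a median of 34, and 67 of the 94 genes reached 20 counts there. The total over the genes was 175.8, 179.3 and 164.2 CPM, inside the range of the hypoxia libraries. Among genes with a 0, Gm24449, an snRNA gene, had 9, 9 and 15 counts in hypoxia and 2, 6 and 0 with rSRGN. The antisense RNA Gm2061 had 6, 15 and 6 and then 8, 0 and 3, and the long intergenic RNA Gm48742 had 7, 8 and 11 and then 0, 14 and 5. Gm13607, a processed pseudogene, had 10, 3 and 10 and then 1, 2 and 0, and 6030440G07Rik, a long intergenic RNA, had 11, 4 and 8 and then 5, 1 and 0. For Gm48742 replicate 2 with rSRGN exceeded every hypoxia library, whereas Gm13607 was below the hypoxia libraries in each of the 3.

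Scaled by the total counts of the groups, the ratio of hypoxia+rSRGN to hypoxia had a median of 0.882 over the 94 genes, with 34 above 1 and 60 below. The comparison rows had a median of 0.846, with 30.3% above 1 against 36.2% of the 94. The exact 95% counting interval of the ratio lay above 1 for 10 genes, below 1 for 32 and held 1 for 52, and it covers counting error only. Among genes with 20 to 99 hypoxia counts it lay above 1 for 7.5% and below 1 for 33.8% of the 80 members, against 4.83% and 21.6% of 2070 comparison rows. The hypoxia side of the ratio had been required to reach 20 counts, which bears most on the lowest genes. The median was 0.705 for the 39 genes with 20 to 29 hypoxia counts (11 above 1), 0.963 for the 41 with 30 to 99 (16 above 1) and 0.977 for the 14 with 100 or more (7 above 1). The comparison rows in the same bins had medians of 0.825, 0.84 and 0.863. By class, 4 of the 21 processed pseudogenes and 4 of the 4 sense intronic RNAs were above 1, as were 8 of 24 TEC rows, 7 of 15 antisense RNAs and 5 of 15 long intergenic RNAs.

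**Figure D2:**
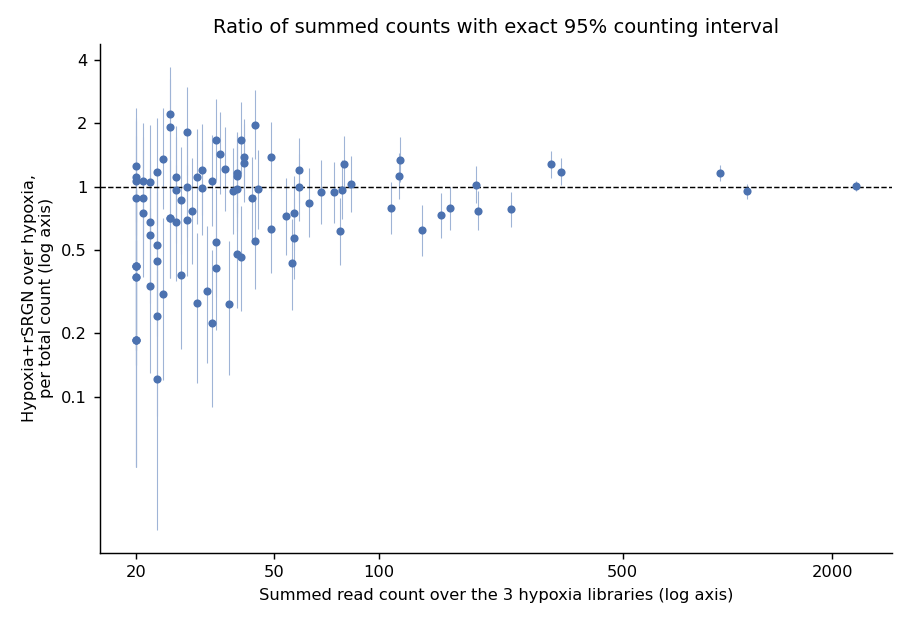
Ratio of summed counts in hypoxia+rSRGN to hypoxia, each scaled by the group's total count (vertical, log axis), against the summed hypoxia count (horizontal, log axis), for each of the 94 genes. Bars are exact 95% counting intervals and the dashed line marks 1; the genes with 100 or more counts sit between 0.621 and 1.34, and the spread widens toward 20 counts.

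In the edgeR quasi-likelihood test of hypoxia+rSRGN against hypoxia, run over 16762 genes, 0 of the 60 members that passed the filter on low counts were called, a call needing an adjusted p below 0.05 together with a change of at least 1.5-fold. Among all genes tested the share was 3.13% in either direction, 2.27% higher and 0.859% lower. At an unadjusted p below 0.05 there were 3, beside 29.4% of all genes tested, and DESeq2 also called 0, with an adjusted p of NA for 46 of the 60. Members pass the filter when enough libraries of either hypoxic group are high, so the 60 are a selected portion and their median is not used. CPM of the 2 groups did not overlap for 2 of the 94 genes with rSRGN higher and for 8 with rSRGN lower, against 3.49% and 14.8% of the 2979 comparison rows, and 15% and 17.7% of the 16957 rows of any type with at least 20 hypoxia counts.

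The largest fitted fall was in Gm20391, an unprocessed pseudogene of 106 bases with 15, 12 and 10 counts in hypoxia and 6, 3 and 2 with rSRGN. The groups did not overlap, and the log2 difference was -1.78 (SE 0.63, adjusted p = 0.0596, edgeR). Gm43420, a TEC row, had 14, 10 and 32 counts and then 6, 18 and 2 (log2 difference -1.21, SE 0.63, adjusted p = 0.209), and the long intergenic RNA Gm12968 had 23, 4 and 13 and then 3, 12 and 5 (-1.08, SE 0.64, adjusted p = 0.279). In both the groups overlapped. On the other side, Gm26725, an antisense RNA over Rbm47, had 13, 6 and 6 counts in hypoxia and 16, 18 and 26 with rSRGN (log2 difference 1.18, SE 0.52, adjusted p = 0.131). Gm48372, a TEC row inside Fgd6, had 17, 11 and 16 and then 15, 44 and 34 (0.96, SE 0.45, adjusted p = 0.157). Gm15528, a processed pseudogene, had 1, 4 and 20 and then 19, 21 and 12 (0.95, SE 0.67, adjusted p = 0.374), so its hypoxia value rested on replicate 3. Leaving out 1 library changed a call in 2 genes. Gm13607, not among the 60, was called lower with any control replicate or hypoxia replicate 2 left out, and Gm15528 was called higher without hypoxia replicate 3.

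The rule did not use position, although counts can depend on it, since pairs within overlapping genes were left out of the counting. Each gene was placed relative to its nearest coding gene with a window of 10 kb. Intronic here means inside the span of a coding gene with no overlap of its exons, whether or not 1 intron held the whole gene. Intronic by that measure were 45 genes (47.9%), against 28.4% of the comparison rows and 22.6% of all noncoding rows. Of these, 29 were on the strand of the host gene and 16 on the other. Overlap with a coding exon was found for 7 genes (7.45%), 6 of them on the opposite strand, against 25.5% of the comparison rows. A further 3 overlapped a coding gene's span in another way, 13 (13.8%, against 8.56%) lay downstream, 12 (12.8%, against 13.2%) upstream, and 14 (14.9%, against 22.7%) farther than 10 kb. All 24 TEC rows were annotated with 1 exon.

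The 94 genes had 92 distinct nearest coding genes, of which 77 were tested in hypoxia against control. There 26 (33.8%) were called higher, 15 (19.5%) lower and 36 neither (median log2 change 0.11). Among all 13897 coding genes tested, 23.8% were called higher and 26.0% lower, with a median of 0.00, and among the nearest coding genes of the comparison rows 23% and 26%. Leaving out the neighbours under 0.25 CPM in control, a choice made after the data were seen, 23 of 74 were called higher and 15 lower, beside 22.3% higher among the 13602 coding genes at or above that level. The difference between these shares was not tested. For the 14 genes with 100 or more hypoxia counts, 6 of 10 tested neighbours were called higher and 0 lower (median 1.00), and 4 of 8 without Treh and Mmp25, which were under 0.25 CPM in control and could enter the test only through the hypoxic libraries. For those with 30 to 99 counts the numbers were 11 higher and 9 lower of 34, and for 20 to 29 counts 11 and 6 of 35. By position, 5 of 8 tested neighbours were called higher where the noncoding gene lay upstream (3 of 6 without Treh and Aqp7, also under 0.25 CPM in control), 3 of 10 where it lay downstream, 12 of 42 where it lay in an intron, 3 of 5 where it overlapped an exon, 2 of 2 where it overlapped the span otherwise, and 2 of 11 where it was farther away. The shares for the comparison rows were 26.6% upstream, 22% downstream, 19% intronic, 23.3% with exon overlap and 25.1% farther away, and no difference from them was tested. Within 50 kb there were 192 tested coding genes, of which 61 (31.8%) were called higher and 28 lower. The 61 include all 10 tested genes there under 0.25 CPM in control, which could enter the test only through the hypoxic libraries.

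**Figure D3:**
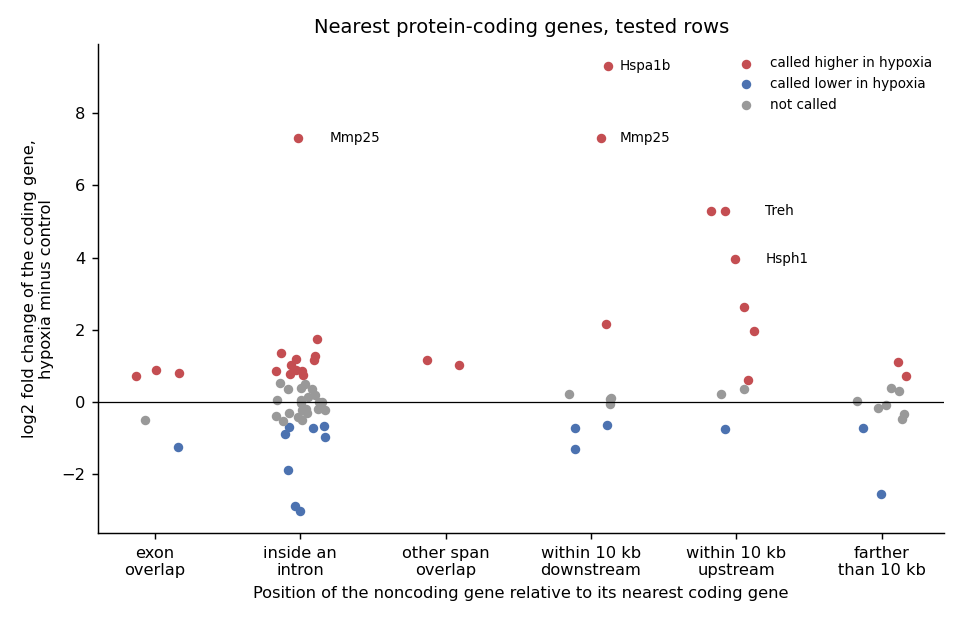
Log2 fold change, hypoxia minus control, of the nearest coding genes that were tested (points; a coding gene shared by 2 noncoding genes is drawn once for each), by the position of the noncoding gene relative to them. Red points were called higher, blue points lower and grey points neither; Hspa1b, Mmp25, Treh and Hsph1 stand above 3.5, and called points of both signs occur among intron hosts.

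Of 25 listed heat shock chaperone genes, 3 were the nearest coding gene of a member. The members were Gm8696, Gm48565 and Gm20005, all among the 10 with the highest hypoxia sums. Such chaperones help proteins fold and are induced by heat shock factor. Outside that list, the DNAJ chaperone gene Dnajb9 lay 2.39 kb from Gm7370. Dnajb9 was not called (log2 fold change -0.05, SE 0.11, adjusted p = 0.701, edgeR, hypoxia against control). Gm8696 lay 1.72 kb downstream of Hspa1b on the same strand. Hspa1b, an inducible HSP70 gene, had 162, 198 and 191 counts in control, 109661, 90780 and 84657 in hypoxia and 120741, 160193 and 137969 in hypoxia+rSRGN (log2 fold change 9.30, SE 0.13, adjusted p = 2.03e-23, hypoxia against control). Its sister gene Hspa1a, 14.5 kb from Gm8696, had 68, 69 and 49, then 74088, 66098 and 57092, then 76313, 101040 and 87402 counts (log2 fold change 10.34, SE 0.13). On the other side, the noncoding 1110038B12Rik, 1.86 kb away, was called higher with a log2 fold change of 1.86 (SE 0.09). Gm8696 had 9 coding genes within 50 kb in all. Among the others Neu1, Hspa1l and Vars were called higher, Ehmt2 and Lsm2 were not called, and the rest are not described here.

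Gm48565 lay 10.9 kb downstream of Hspa8 on the same strand, just beyond the 10 kb window. Hspa8, the constitutive HSC70 gene, had 31306, 30536 and 29679 counts in control, 55682, 56360 and 50151 in hypoxia and 50720, 63567 and 58298 with rSRGN (log2 fold change 1.12, SE 0.07, adjusted p = 6.43e-12). Gm20005 began 5.23 kb upstream of Hsph1 on the opposite strand. Hsph1, which encodes the HSP105 exchange factor for HSP70, had 2171, 2067 and 1784 counts in control, 29298, 25248 and 22121 in hypoxia and 26564, 36680 and 28877 with rSRGN (log2 fold change 3.96, SE 0.10, adjusted p = 6.3e-19). Farther along, Wdr95 at 29.7 kb had 7, 4 and 4, then 216, 177 and 181, then 162, 239 and 194 counts (log2 fold change 5.51, SE 0.25). The pseudogene Gm5566, at 13 kb, had a single control count and 67, 59 and 40 in hypoxia, so it missed the set by that count, and it was called higher with rSRGN at 82, 146 and 105 counts (log2 difference 0.91, adjusted p = 0.0176). Gm20005 itself was not called with rSRGN (log2 difference 0.27, SE 0.22, adjusted p = 0.466).

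Of the 25 listed heat shock genes, 18 were called higher in hypoxia against control, 0 lower and 7 neither (median log2 change 1.12), beside 26.4% and 25.1% of all genes tested. The list was known to lie near some of these genes from earlier results. It had 5 genes within 50 kb of a member and 3 as nearest neighbour, and 0 of the 25 were called in hypoxia+rSRGN against hypoxia (background 3.13%). Of its genes near Gm8696, Hspa1b and Hspa1a were higher with rSRGN by less than 1.5-fold (log2 difference 0.47, adjusted p = 0.000851, and 0.34, adjusted p = 0.00766). The heat shock element TTCNNGAANNTTC, or GAANNTTCNNGAA on the other strand, was sought in RefSeq promoters running from 250 bases before to 50 after the start. It was matched in the promoters of Hsph1 and Aqp7, 2 of the 72 nearest coding genes with a promoter sequence (2.78%), and in 0.662% of 27025 genes. These are descriptions of letters, not sites. A promoter sequence was at hand for 8 of the 94 noncoding genes. None of the 8 held that element, BC049987 held ACGTG or its reverse CACGT (26.4% of the nearest coding genes and 21.8% of all genes), and Gm26725 held the AP-1 motif TGANTCA, which 8.97% of all genes held. The TATA box TATAAA, also sought, was matched in BC049987 and Gm33533 and in 15.7% of all genes.

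**Figure D4:**
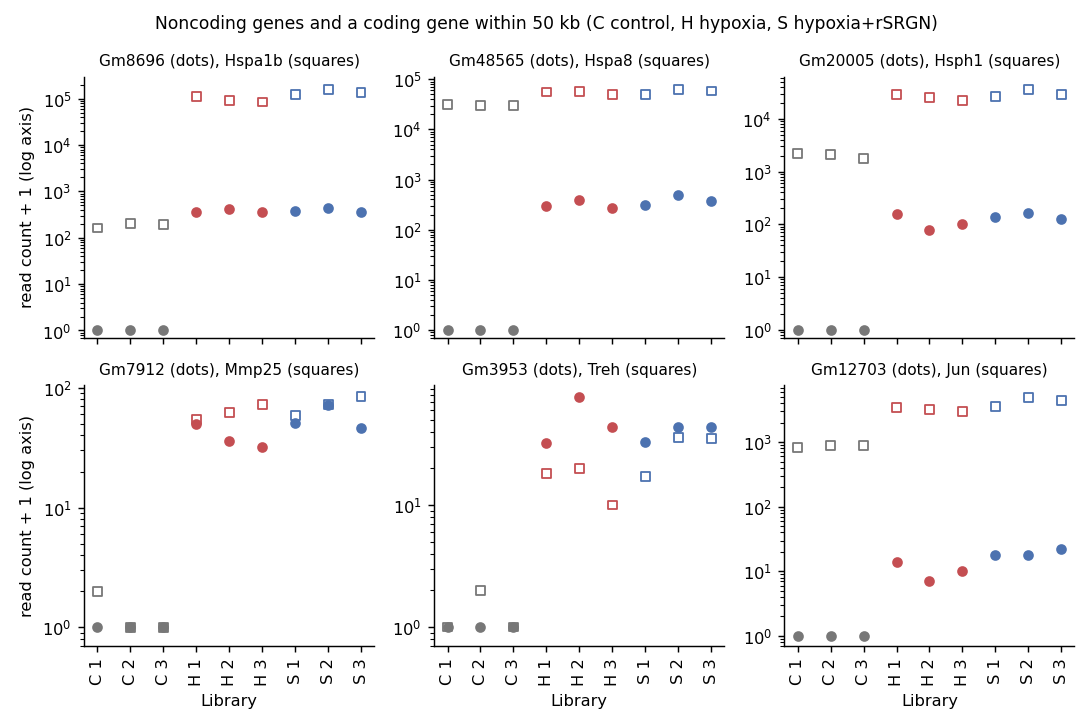
Read counts plus 1 (log axis) of 6 noncoding genes (dots) and of a coding gene within 50 kb of each (open squares) in the 9 libraries, grey for control, red for hypoxia and blue for hypoxia+rSRGN. The noncoding genes are at 0 counts, drawn at 1, in control; Hspa8, Hsph1, Jun and Hspa1b have counts in every control library, while Mmp25 and Treh have 1 count in 1 control library.

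Some members shared a locus. Gm7912 and Gm7773, processed pseudogenes 21.3 kb apart on chromosome 17, both had Mmp25, a membrane-anchored metalloproteinase gene, as nearest coding gene. Gm7912 had 49, 35 and 31 counts in hypoxia and 50, 71 and 45 with rSRGN, and Gm7773, inside an Mmp25 intron on the opposite strand, had 5, 8 and 9 and then 4, 8 and 2. Mmp25 had 1, 0 and 0 counts in control, 53, 61 and 71 in hypoxia and 58, 71 and 83 with rSRGN, a hypoxia to control ratio of 237.3 (95% counting interval 42.1 to 9424). Zscan10, a zinc finger gene 8.22 kb from Gm7912, had 2, 0 and 0 counts, then 22, 29 and 28 and then 18, 22 and 42, a ratio of 50.7 (13.6 to 425.7). Bicdl2, 17.4 kb from Gm7773, had 1, 7 and 5, then 97, 130 and 67 and then 111, 183 and 170 (log2 fold change 4.75, SE 0.39). Zfp13 and Thoc6, also within 50 kb, had counts throughout and were not called.

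The other pair was Gm3953 and BC049987, 5.74 kb apart on the minus strand of chromosome 9, both upstream of Treh, the trehalase gene, on the opposite strand. BC049987, a long intergenic RNA 995 bases from Treh, had 21, 17 and 30 counts in hypoxia and 25, 27 and 17 with rSRGN. Treh had 0, 1 and 0 counts in control, 17, 19 and 9 in hypoxia and 16, 35 and 34 with rSRGN, a hypoxia to control ratio of 57.7 (9.85 to 2330). Ddx6, 23.2 kb from Gm3953, went the other way (log2 fold change -1.20, SE 0.08, adjusted p = 4.74e-12). Coding genes under 0.25 CPM in control enter the test through the hypoxic libraries, and 90.2% of the 295 such genes tested were called higher, so the calls of Mmp25, Zscan10, Treh, Wdr95 and Bicdl2 say little beyond that share.

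The processed transcript Gm12703 lay 664 bases downstream of Jun, an AP-1 subunit gene, on the same strand. It had 13, 6 and 9 counts in hypoxia and 17, 17 and 21 with rSRGN, groups that did not overlap in counts (log2 difference 0.89, SE 0.50, adjusted p = 0.248). Jun had 817, 888 and 879 counts in control, 3420, 3186 and 2962 in hypoxia and 3564, 4951 and 4408 with rSRGN (log2 fold change 2.18, SE 0.08, hypoxia against control). 1700016G22Rik, 3.39 kb upstream of the zinc finger factor gene Klf6 on the opposite strand, had 3, 19 and 1 counts in hypoxia and 10, 14 and 5 with rSRGN, so replicate 2 carried its hypoxia sum. Klf6 rose by a log2 fold change of 1.97 (SE 0.09).

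Of the 15 nearest neighbours that fell, 8 hosted a member in an intron, as did 42 of all 77 tested. Among those 42 hosts 19% fell, beside 19.5% of the 77. Gm38105, a TEC row in an intron of the calcium channel subunit gene Cacnb2, had 8, 9 and 8 counts in hypoxia and 7, 7 and 5 with rSRGN. Cacnb2 fell from 107.5 to 13.9 CPM (log2 fold change -3.02, SE 0.10). Gm44401, inside Plbd1 on the opposite strand, had 36, 16 and 22 counts in hypoxia, and Plbd1 fell from 7.88 to 1.11 CPM (-2.87). The microRNA gene Mir6546, inside Fcgr3, an immunoglobulin receptor gene, had 9, 20 and 9 counts while Fcgr3 fell from 4.36 to 1.24 CPM (-1.87). The cardiomyocyte and macrophage markers were lower in hypoxia as given above, and the part of such shifts in the falls of Cacnb2, Plbd1 and Fcgr3 was not tested. Abcb9, whose end lay 9.18 kb from Gm43661, fell from 4.71 to 1.83 CPM (-1.43). Cenpv, 1.4 kb from the antisense RNA Gm12949, fell from 4.35 to 1.86 CPM (-1.29). Among hosts that rose, Serpini1, a neuronal serine protease inhibitor gene with Gm37672 in an intron (39, 17 and 21 counts in hypoxia, 15, 21 and 15 with rSRGN), went from 12.5 to 44 CPM (log2 fold change 1.75, SE 0.10). Jun, Klf6 and Serpini1 were chosen for description after their values were seen. Other genes within 50 kb of a member, such as Wdr95, Bicdl2 and Gm5566, also fall outside the naming rules given below.

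With rSRGN against hypoxia, 3 of the 77 tested neighbours were called higher and 0 lower, against 2.53% and 0.756% of all coding genes. These were Inhba, the activin A subunit gene (log2 difference 0.64), Rbm47, an RNA-binding protein gene (0.93), and Rc3h1, the Roquin-1 gene (0.60). The noncoding partners of Inhba and Rbm47 were not called, and that of Rc3h1 was too low to test. Gm48444, opposite Inhba, had 18, 25 and 16 counts in hypoxia and 22, 30 and 24 with rSRGN, and Gm37052, in Rc3h1, had 9, 6 and 5 and then 3, 4 and 2.

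The small RNA and rRNA genes are normally short and without a poly(A) tail, while the libraries were enriched for poly(A). Of the 9, 6 lay in an intron of a coding gene. Gm25966, an rRNA gene of 117 bases inside the proteasome subunit gene Psmd14, had 20, 20 and 14 counts in hypoxia and 11, 19 and 12 with rSRGN. Mir763, inside Hmga2 (an architectural chromatin gene called higher, log2 fold change 0.87), had 15, 15 and 5 and then 17, 11 and 26, and Mir6546 had 15, 13 and 11 with rSRGN. The annotation covers the hairpins, and mature microRNAs of the lengths printed above are not what such libraries measure. The snoRNA genes Gm27295, in App, and Gm23172, in Mertk, had 25, 3 and 16 and 17, 8 and 6 counts in hypoxia, then 16, 6 and 4 and 8, 21 and 11. App, on the strand opposite Gm27295, and Mertk, on the strand of Gm23172, were both called higher (log2 fold change 0.74 for App and 1.17 for Mertk). The snRNA gene Gm25637, near the aquaporin gene Aqp7, had 24, 9 and 6 and then 16, 13 and 18, and Gm26243 had 5, 20 and 9 and then 6, 6 and 3. Gm24447, a misc_RNA, had 15, 12 and 4 and then 10, 18 and 5. Gm26243 and Gm24449 were too low to test, and none of the other 7 was called with rSRGN (background 3.13%).

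Copies of a sequence elsewhere bear on how reads are assigned. Another gene matched the longest transcript at 90% identity or more over at least 80% of its length for 15 of the 94 genes, 11 of them pseudogenes, and the counts of these 15 are uncertain. Gm28960 had 398 such genes, Gm26243 346 and Gm24449 76, whereas Gm8696 had 8. The search kept a limited number of matching transcripts per gene, so the largest of these numbers may be too low. A coding gene at another locus matched at 80% identity over at least 50% of the length for 18 of the 25 pseudogenes, at 80.2% to 97.7%. Of 17 such pseudogenes with a tested coding match, the match was called higher in hypoxia for 10 (9 distinct genes of 16), lower for 1 and neither for 6, beside the 23.8% of all coding genes called higher. Among the 10 were ribosomal protein genes, with Rps19 (matched by Rps19-ps4 at 97.7%) rising from 178.8 to 668.4 CPM, log2 fold change 1.84, and Rps2 (matched by Gm7370 at 88.1% and Gm7502 at 93.1%) rising from 734.9 to 1870 CPM, log2 fold change 1.28. Snu13, a spliceosome and snoRNP protein gene matched by Gm8696 at 97.4%, went from 51.8 to 89.9 CPM (log2 fold change 0.73). Arid1a, matched by Gm8134 at 89.3%, was the one that fell (-0.73).

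The limits of the rule cut through a continuous range. Just inside, 12 genes had 20 hypoxia counts, 3 had 21 and 4 had 22, with 4 to 27, 17 to 24 and 8 to 25 counts in hypoxia+rSRGN. Rps19-ps4, for one, had 5, 11 and 5 counts and then 6, 7 and 4. Just outside, 11 rows had 19, 8 had 18 and 15 had 17, with 2 to 42, 7 to 35 and 1 to 37 counts with rSRGN. Gm6684 had 8, 4 and 7 and then 9, 5 and 4, and Gm30280 had 8, 1 and 10 and then 17, 12 and 13. On the control side, 72 noncoding rows with at least 20 hypoxia counts missed the set by 1 control count, with hypoxia sums of 20 to 1508, 65 by 2 and 50 by 3. When the 0 limit was applied to 2 control libraries and the third was read, a choice made after the data were seen, 94 of 142, 156 and 138 rows were also at 0 in replicates 1, 2 and 3 (66.2%, 60.3% and 68.1%), and the others had at most 7, 10 and 14 counts there. With the limit of 20 applied to 2 hypoxia libraries, 45, 62 and 58 of the 94 remained, and 45, 61 and 56 of them had a count in replicates 1, 2 and 3. A sum of 0 over 3 control libraries therefore describes these libraries at this depth, and silence below 0.0448 CPM was not measured.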

How the data were processed

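Poly(A)-enriched RNA of 9 NMVM cultures was sequenced on a NovaSeq instrument. The authors deposited one table of raw fragment counts per gene, without normalization. Per its header, featureCounts 2.0.1 assigned read pairs to exons of the GENCODE release 25 annotation of GRCm38. No option for strand was set, and pairs with several mapping places or within overlapping genes were left out by default; HISAT2 is named in the submitters' processing notes, with the version not given in the sources used here. Groups and replicate numbers came from the sample titles, all 9 columns were used and 0 were left unused.

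Rows were selected from the counts, with coordinates read from the same table. Counts were fitted in R 4.3.3 with edgeR 4.0.16 (filterByExpr, TMM, a mean per group over the 9 libraries, quasi-likelihood test, Benjamini-Hochberg adjustment over all genes tested), and a call needed an adjusted p below 0.05 and a fold of at least 1.5. CPM are counts divided by a library's total and scaled to a common total. The fit was tested on simulated data. DESeq2 1.42.0 was an alternative. Replicates were compared by chi-square and no 2 libraries agreed within sampling noise. Replicate numbers did not pair the libraries (correlation of deviations -0.109 to 0.105). Transcript sequences of GENCODE release 21 were available for all 94 genes, 89 at the table's exon length, and were matched with BLAST 2.17.0 (word size 14, expectation 1e-05). Motifs were searched on both strands. Ratios of summed counts carry exact 95% intervals for counting error only.

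The members, the gene lists and the tests were chosen with earlier results of these data known. The text names the 10 members with the highest hypoxia sums, members at the limits, the 3 largest fitted changes each way with rSRGN (none was called), members within 100 kb of another, up to 5 with a 0 in hypoxia+rSRGN, small RNAs, heat shock neighbours, and the 5 neighbours within 10 kb with the largest rise and fall. Jun, Klf6, Serpini1 and some genes within 50 kb of a member were named outside those rules. The share of repeat-masked sequence was not analysed here.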

Additional observations from a re-analysis of the deposited data

How the results depend on the processing

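Of 16762 genes tested, 8644 were called in hypoxia against control and 525 in hypoxia+rSRGN against hypoxia. With DESeq2 these were 8548 and 544, and with 1 library left out 8496 to 8952 and 321 to 699, the lowest without hypoxia replicate 3. Members called with rSRGN numbered 0 under each other tool, scaling or filter, and 0 to 1 with 1 library left out; a minimum of 10 counts in every library left no member to test. A replicate block gave 8550 and 495 calls, with 0 members called with rSRGN and 26 neighbours called higher in hypoxia against control, and no call of a member changed. The median log2 difference over the members that passed the filter, a selected portion from which nothing is read, was 0.024, -0.164 without the filter, which adds the other 34 members, and -0.097 to 0.104 with 1 library left out. The neighbours called higher numbered 25 to 27 with 1 library left out. The number of members was 319 at a limit of 10 hypoxia counts, 27 at 50, 231 with up to 2 control counts, and 45 to 156 with 1 library left out of the rule (the control libraries were added after the data were seen). Members downstream of a coding gene numbered 21 at 50 kb, and members upstream 6 at 5 kb. The size of change that these counts could show was not tested.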
